A study of Homo sapiens with 12 samples.

Results

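The aryl hydrocarbon receptor gene AHR, its repressor gene AHRR and 4 genes known to be induced through the receptor (CYP1A1, CYP1B1, TIPARP and ALDH3A1) were followed across every group of the study. These 6 genes of the 16299 in the table were found by their symbols. They were chosen by their levels in these same libraries, as genes of 1 pathway whose differences between matrices had been seen, so those differences are given as values without a test. Poly-A RNA was sequenced from PANC1 and BXPC3 in 12 libraries, and both are established human lines of pancreatic ductal adenocarcinoma. Each line was grown inside gelatin methacryloyl (GelMA), gelatin carrying methacryloyl groups through which it can be cross-linked, at 7.5% or at 5%, or inside collagen, with 2 libraries in each of the 6 groups. Both lines were kept in the same serum-supplemented high-glucose medium, per the labels, and no ligand of the receptor was listed as added to any group. PANC1 is known as a poorly differentiated line with mesenchymal traits and BXPC3 as an epithelial line without functional SMAD4, and each line stands for 1 tumour. The sources used here give no gel stiffness or culture time and do not say whether the 2 replicates were separate cultures. The p-values therefore describe scatter among libraries, part or all of which could be technical.

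The receptor is a transcription factor of the bHLH-PAS family that waits in the cytosol in a complex that includes the chaperone HSP90 and the co-chaperone p23 (gene PTGES3). Ligands such as dioxins, polycyclic hydrocarbons and metabolites of tryptophan release it into the nucleus, where it pairs with ARNT and binds the xenobiotic response element, a short DNA motif with the core GCGTG. CYP1A1 and CYP1B1 encode cytochrome P450 enzymes that oxidise many of these ligands, while AHRR, which competes for ARNT, and TIPARP, a mono-ADP-ribosyltransferase that modifies the receptor, limit the response. Receptor protein, its ligands and its binding to DNA were not measured here.

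The values are log2 RPKM, read density per gene length and library size, so that levels can be set side by side between genes as well as between libraries. SMAD4 was at 3.94 to 4.55 log2 RPKM in PANC1 and at -5.92 to -5.35 in BXPC3, in keeping with what is known of these lines, and the 5 epithelial markers were present in both lines (3.71 to 11.69 in PANC1, 5.92 to 11.83 in BXPC3). The SD of the difference between the replicates of a group was 0.31 to 0.38 log2 across genes, and no 2 replicate libraries held the same values throughout. In bulk RNA of this kind, fewer cells that express a gene and less RNA of it per cell cannot be told apart.

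Both genes of the receptor and its repressor differed between matrices by less than 1 log2 unit. AHR (ENSG00000106546, chr7:16916359-17346152, plus strand, GRCh38) was at 6.27 and 6.28 log2 RPKM in the PANC1 libraries in 7.5% GelMA, at 6.57 and 6.56 in 5% GelMA and at 5.86 and 5.67 in collagen. The 3 PANC1 groups did not overlap, with 5% GelMA highest and collagen lowest. The difference from collagen was 0.51 ± 0.06 (SE) in 7.5% GelMA and 0.80 ± 0.06 in 5% GelMA, and 7.5% GelMA was lower than 5% GelMA by -0.29 ± 0.06. In BXPC3, AHR was at 7.47 and 7.45 in 7.5% GelMA, at 7.33 and 7.49 in 5% GelMA and at 7.34 in both collagen libraries. All BXPC3 libraries lay above all PANC1 libraries, and the BXPC3 groups next to each other in level overlapped, while 7.5% GelMA lay above collagen (0.12 ± 0.06) with no overlap. The equal collagen values are what quantile normalization gives when a gene holds the same rank in both libraries, so an SD of 0 there is no measure of precision. AC073332.1, an antisense gene that overlaps AHR, was at 0.03 and 0.17 in PANC1 in 7.5% GelMA, at 0.44 and 0.32 in 5% GelMA and at -0.76 and -1.07 in collagen, the same order of groups as AHR. Without knowing whether the counting used strand, reads of AHR and AC073332.1 cannot be told apart.

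AHRR (ENSG00000063438, chr5:304176-438291, plus strand) spanned the narrowest range of the 6 genes over all 12 libraries, although within BXPC3 its difference of -0.21 between 7.5% GelMA and collagen was larger in size than those of AHR (0.12) and TIPARP (-0.10). PANC1 held 4.51 and 4.49 log2 RPKM in 7.5% GelMA, 4.42 and 4.38 in 5% GelMA and 4.83 and 4.92 in collagen. BXPC3 held 4.57 and 4.48 in 7.5% GelMA, 4.67 and 4.60 in 5% GelMA and 4.81 and 4.65 in collagen. Both GelMA groups were below collagen in PANC1, by -0.37 ± 0.07 in 7.5% and by -0.47 ± 0.07 in 5% GelMA, with no overlap of libraries. In BXPC3 the difference was -0.21 ± 0.07 in 7.5% GelMA, again with no overlap, and -0.09 ± 0.07 in 5% GelMA, where the libraries overlapped. AHRR shares its locus and strand with PDCD6, which encodes a calcium-binding protein and was at 5.44 and 5.41 log2 RPKM in PANC1 in 7.5% GelMA, at 5.57 and 5.48 in 5% GelMA and at 5.81 and 5.79 in collagen, so that it too was lower in GelMA. The pseudogene AC010442.2 overlaps AHRR on the same strand and was at -0.53 to 1.24 in PANC1 and at 4.23 to 4.82 in BXPC3. Reads in the shared parts could be assigned to either gene, and the part of this in the AHRR values was not tested.

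The sequence before the transcription start is shown for the 2 targets that stood highest in PANC1 in 7.5% GelMA relative to the other PANC1 groups and had a window in the table, and for AHRR as the feedback gene that did not. Each is the 250 bases before a start site in RefSeq (GRCh38.p14), written 5′ to 3′ on the strand of the gene, with the core GCGTG, or CACGC where it lies on the opposite strand, in capitals.
CYP1A1, chr15:74725529-74725778, minus strand: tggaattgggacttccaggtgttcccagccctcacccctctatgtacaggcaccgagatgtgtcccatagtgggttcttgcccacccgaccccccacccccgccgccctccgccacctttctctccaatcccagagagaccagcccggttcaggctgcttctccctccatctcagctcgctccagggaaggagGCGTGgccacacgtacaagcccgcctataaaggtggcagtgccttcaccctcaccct
TIPARP, first of 3 windows, chr3:156674340-156674589, plus strand: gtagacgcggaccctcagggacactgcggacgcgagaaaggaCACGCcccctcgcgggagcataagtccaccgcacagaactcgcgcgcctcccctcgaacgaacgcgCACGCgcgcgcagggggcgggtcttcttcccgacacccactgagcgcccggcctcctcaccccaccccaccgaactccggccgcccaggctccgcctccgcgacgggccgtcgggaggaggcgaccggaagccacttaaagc
AHRR, first of 2 windows, chr5:321464-321713, plus strand: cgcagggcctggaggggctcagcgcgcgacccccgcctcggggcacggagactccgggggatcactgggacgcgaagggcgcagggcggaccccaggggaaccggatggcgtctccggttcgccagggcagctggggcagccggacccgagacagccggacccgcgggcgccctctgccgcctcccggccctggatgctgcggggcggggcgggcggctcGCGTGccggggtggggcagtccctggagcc
Counted back from the start, the core lay at -57 to -53 in CYP1A1, at -208 to -204 and -142 to -138 in TIPARP on the opposite strand, and at -30 to -26 in AHRR, where it was part of the longer form TNGCGTG. The other TIPARP windows and the AHR window held no core, and the other AHRR window held 2. Over all 35116 windows of this length, searched on both strands, 32.2% held GCGTG and 4.52% held TNGCGTG, of which GCGTG is a part. These matches describe the letters and do not show binding. CYP1B1 and ALDH3A1 had no window in the table.

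CYP1A1 (ENSG00000140465, chr15:74719542-74725610, minus strand), the P450 gene most used as a readout of the receptor, was at 3.18 and 3.23 log2 RPKM in PANC1 in 7.5% GelMA, at 1.13 and 0.42 in 5% GelMA and at 0.06 and 0.57 in collagen. Both 7.5% libraries lay above all 4 other PANC1 libraries, while those of 5% GelMA and collagen overlapped. The difference was 2.43 ± 0.28 log2 (5.39-fold) from 5% GelMA and 2.89 ± 0.28 (7.42-fold) from collagen, against 0.46 ± 0.28 for 5% GelMA minus collagen. That last value was 0.11 without replicate 1 of 5% GelMA and 0.82 without replicate 2. With 1 RPKM added before the log, the 7.5% differences were 1.90 from 5% GelMA and 2.18 from collagen. In BXPC3, CYP1A1 was at 2.73 and 3.22 in 7.5% GelMA, at 3.19 and 2.89 in 5% GelMA and at 2.25 and 2.72 in collagen. The 2 GelMA groups overlapped, and both lay above collagen, by 0.49 ± 0.28 in 7.5% and by 0.56 ± 0.28 in 5% GelMA. The libraries of PANC1 in 7.5% GelMA overlapped the range of BXPC3 in GelMA, and the other PANC1 libraries stood below every BXPC3 library.

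**Figure D1:**
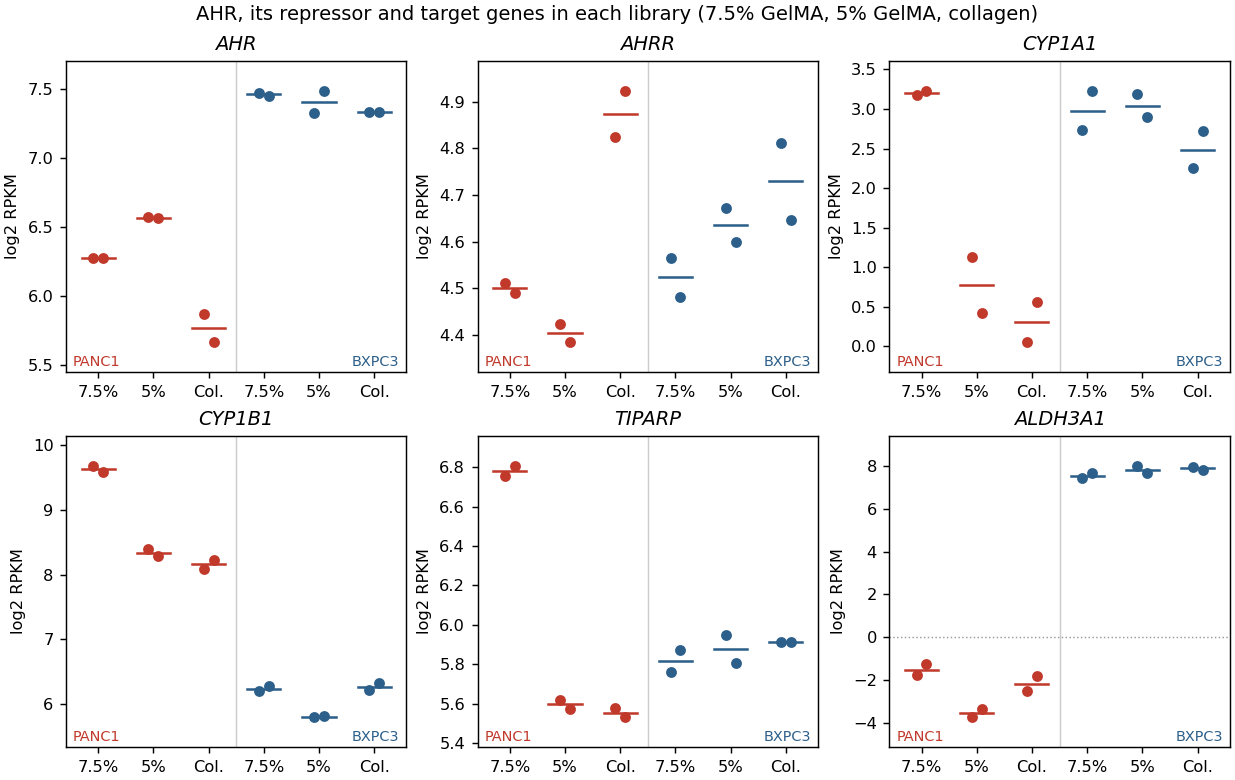
Log2 RPKM of the 6 genes in each of the 12 libraries (points) with the mean of the 2 libraries of a group (bars), PANC1 in red left of BXPC3 in blue, each in 7.5% GelMA, 5% GelMA and collagen. Each panel has its own vertical axis. CYP1A1 in PANC1 was at 3.18 and 3.23 in 7.5% GelMA and at 1.13 or below in the other PANC1 libraries, and the dotted line in the ALDH3A1 panel marks 1 RPKM.

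CYP1B1 (ENSG00000138061, chr2:38066973-38109902, minus strand), a P450 enzyme of steroid and hydrocarbon metabolism, was the most abundant of the 6 genes in PANC1. In that line it was at 9.68 and 9.58 log2 RPKM (818 and 766 RPKM) in 7.5% GelMA, at 8.39 and 8.29 in 5% GelMA and at 8.08 and 8.23 in collagen. The 3 groups did not overlap, and the step from 5% to 7.5% GelMA (1.29 ± 0.06, 2.44-fold) exceeded the difference of 5% GelMA from collagen (0.18 ± 0.06). Against collagen, 7.5% GelMA was higher by 1.47 ± 0.06. BXPC3 held 6.19 and 6.27 in 7.5% GelMA, 5.80 and 5.81 in 5% GelMA and 6.21 and 6.32 in collagen. There 5% GelMA was lowest, by -0.46 ± 0.06 against collagen, while 7.5% GelMA and collagen overlapped and 7.5% GelMA stood 0.43 ± 0.06 above 5% GelMA. CYP1B1-AS1, an antisense gene that overlaps CYP1B1 on the other strand, was at 2.26 and 2.24 in PANC1 in 7.5% GelMA, at 1.53 and 1.34 in 5% GelMA and at 1.22 and 1.21 in collagen. The strand setting of the counting is unknown, so reads of this pair cannot be told apart, and the same holds for RMDN2, which overlaps CYP1B1 on the other strand at 0.58 to 2.09.

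TIPARP (ENSG00000163659, chr3:156673235-156706770, plus strand) stood higher in PANC1 in 7.5% GelMA than in any other group of the study. It was at 6.76 and 6.80 log2 RPKM there, at 5.62 and 5.57 in 5% GelMA and at 5.58 and 5.53 in collagen. The difference of 7.5% GelMA was 1.18 ± 0.05 (2.27-fold) from 5% GelMA and 1.23 ± 0.05 from collagen, whereas the libraries of 5% GelMA and collagen overlapped (0.04 ± 0.05). BXPC3 held 5.76 and 5.87 in 7.5% GelMA, 5.95 and 5.81 in 5% GelMA and 5.91 in both collagen libraries. Its 3 groups lay within 0.10 of each other on average, and only 7.5% GelMA and collagen did not overlap. TIPARP-AS1, which starts beside TIPARP on the other strand, was at 1.43 and 1.94 in PANC1 in 7.5% GelMA, at 1.02 and 0.92 in 5% GelMA and at 1.67 and 1.61 in collagen, an order of groups unlike that of TIPARP.

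ALDH3A1 (ENSG00000108602, chr17:19737984-19748943, minus strand), which oxidises aldehydes from lipid peroxidation, was abundant in BXPC3 and under 1 RPKM in every PANC1 library. In BXPC3 it was at 7.41 and 7.65 log2 RPKM in 7.5% GelMA, at 7.99 and 7.66 in 5% GelMA and at 7.97 and 7.80 in collagen, and 7.5% GelMA lay lowest (-0.36 ± 0.25 from collagen). In PANC1 it was at -1.77 and -1.26 in 7.5% GelMA, at -3.72 and -3.33 in 5% GelMA and at -2.51 and -1.83 in collagen. Differences at such levels depend on the unknown offset before the log. The PANC1 difference of 7.5% minus 5% GelMA was 2.01 ± 0.25 as deposited and 0.32 with 1 RPKM added. ALDH3A1 passed the filter of 1 RPKM in 2 libraries only through BXPC3, while each of the other 5 genes reached 1 RPKM in all 12 libraries.

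**Figure D2:**
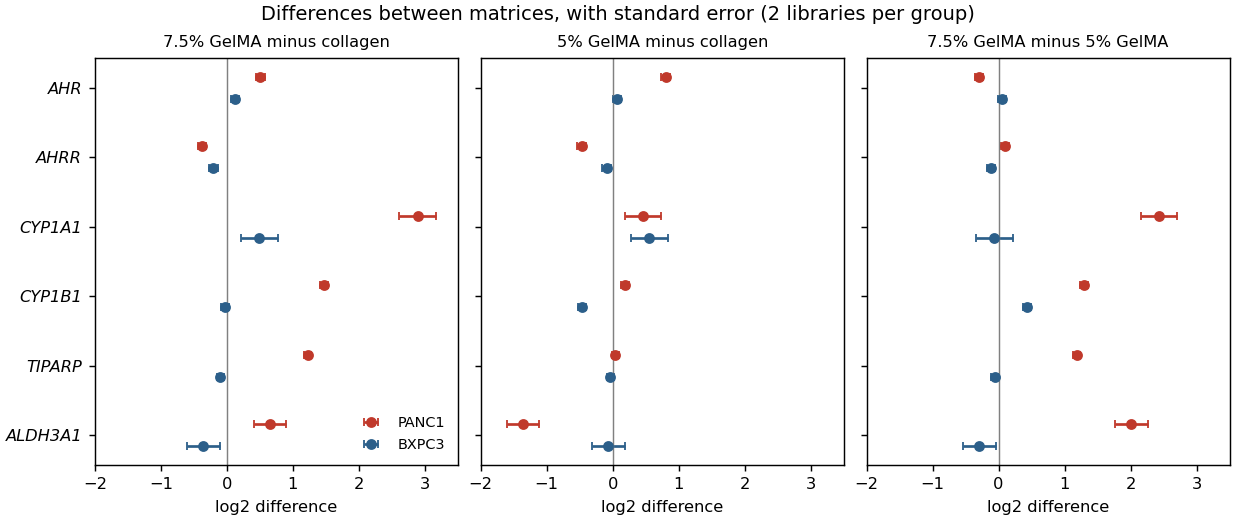
Log2 difference (points) with its standard error (bars) for each of the 6 genes in 3 comparisons of matrices, PANC1 in red above BXPC3 in blue. CYP1A1, CYP1B1 and TIPARP stood 1.18 to 2.43 log2 higher in 7.5% than in 5% GelMA in PANC1 and between -0.06 and 0.43 in BXPC3.

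Set side by side, the 6 genes fell into different patterns within PANC1. CYP1A1, CYP1B1 and TIPARP were highest in 7.5% GelMA, AHR was highest in 5% GelMA, and AHRR was highest in collagen. ALDH3A1 was highest in 7.5% GelMA as well, at levels under 1 RPKM throughout. For 7.5% minus 5% GelMA in PANC1, 5 genes were higher and 1 was lower with no overlap of libraries, where 66.2% of all genes tested did not overlap (35.4% higher and 30.8% lower). The count for 7.5% GelMA minus collagen was likewise 5 higher and 1 lower, against 78.4% of all genes (38.9% higher and 39.5% lower). For 5% GelMA minus collagen it was 2 higher and 2 lower, against 76.0% of all genes (36.7% higher and 39.3% lower). In BXPC3, 1 was higher and 2 were lower for 7.5% minus 5% GelMA, against 41.1% of all genes (20.9% higher and 20.2% lower). Against collagen, 2 were higher and 3 lower in 7.5% GelMA (67.1% of all genes, 34.9% higher and 32.2% lower), and 1 was higher and 1 lower in 5% GelMA (64.7%, 32.9% higher and 31.8% lower). These contrasts were part of how the genes were chosen, so nothing is read from the counts. The 2 comparisons with collagen within a line share the collagen libraries.

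Some other transcripts also differed between the PANC1 groups, though not all in the same order of groups. COL1A1, 1 of 5 fibroblast markers listed, was at 357 to 418 RPKM in 7.5% GelMA, at 211 to 215 in 5% GelMA and at 90.1 to 91.5 in collagen. The other fibroblast markers (COL1A2, DCN, LUM and PDGFRB) were absent from the table of values, as were PTPRC, CD68 and CDH5. PANC1 itself is known for mesenchymal traits, and the part of other cells in the result was not tested. The immune marker present in the table (CD3E, 1 of 3) was at 0.021 to 0.037 RPKM over the 6 PANC1 libraries. The endothelial ones present (PECAM1 and VWF, 2 of 3) summed to 0.0861 to 0.216 RPKM. In BXPC3 the fibroblast, immune and endothelial markers summed to 8.96 to 11.1, 1.09 to 2.17 and 2.54 to 4.10 RPKM, and none of the markers analysed was listed at 0. Among 81 cytosolic ribosomal protein genes, 25 rose and 0 fell in 7.5% against 5% GelMA in PANC1 (median 0.12 log2, limma). Of 13 mitochondrially encoded genes 1 rose, beside 18.7% of all genes called in that comparison. Against collagen, 53.8% of all genes were called in 7.5% GelMA and 46.2% in 5% GelMA. There 8 mitochondrially encoded genes rose and 0 fell in each GelMA group (median 0.235 log2 in both). Of the ribosomal protein genes, 3 rose and 62 fell in 7.5% GelMA, and 1 rose and 68 fell in 5% GelMA. The part of these shifts in the values of the 6 genes was not tested.

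The genes whose profile lay closest to each member were sought by root mean square difference of values centred within each line, over all 12 libraries and all genes tested. For CYP1A1 these were VIPR1, a receptor of vasoactive intestinal peptide (0.33 log2), TNFRSF9, a costimulatory receptor (0.38), and ENTREP2 (0.39), against a root mean square of 0.94 for CYP1A1 around its own line means. For CYP1B1 they were TMEM132B (0.14), the kinase gene TNIK (0.15) and SOX17, an endoderm transcription factor (0.17), against 0.49. TIPARP was nearest to ELAPOR2 (0.09), TMEM156 (0.10) and HOOK1, a microtubule linker gene (0.11), against 0.40. All 9 were highest in 7.5% GelMA among the PANC1 groups, a peak that picking genes by closeness to these profiles favours in advance. ELAPOR2 stayed at -1.20 log2 RPKM there, and ENTREP2 and SOX17 averaged -4.43 to -3.88 in the BXPC3 groups. AHR was nearest to ING3, MYD88, an adaptor of innate immune receptors, and RTL8B (0.07 to 0.08, against 0.24). AHRR was nearest to SH3YL1, the ribosomal protein gene RPL15 and PRKAB2 (0.05 each, against 0.16), distances small because the profiles are nearly flat. ALDH3A1 was nearest to SLC37A2, HCAR2 and SLC9A9 (0.30 to 0.32, against 0.64).

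**Figure D3:**
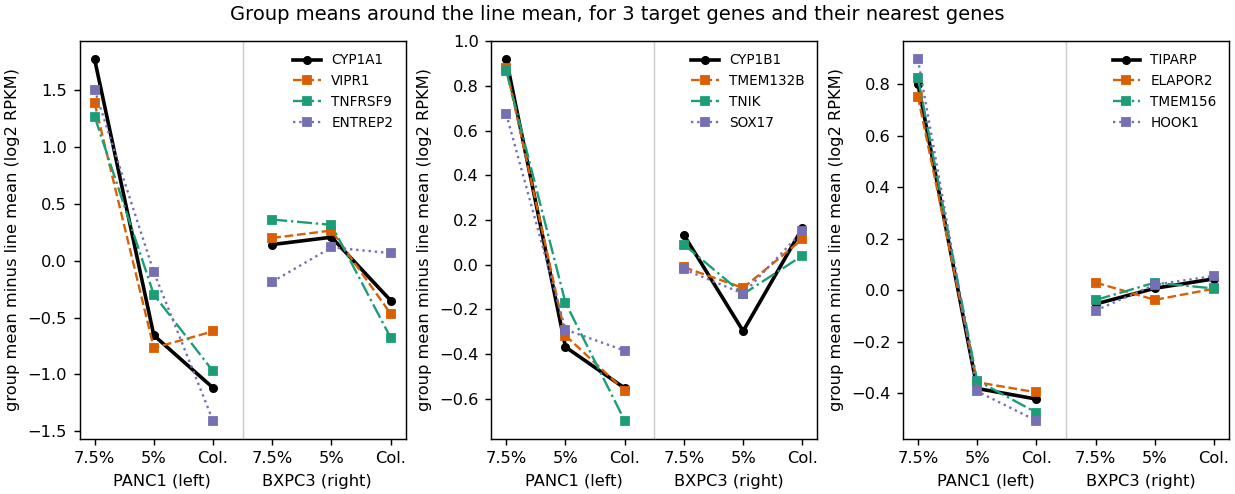
Group means of CYP1A1, CYP1B1 and TIPARP (black) and of the 3 genes with the closest profile to each (colours), as log2 RPKM minus the mean of the line, for 7.5% GelMA, 5% GelMA and collagen in PANC1 (left) and BXPC3 (right). Each panel has its own vertical axis. In PANC1 every line peaks in 7.5% GelMA, which picking genes by closeness of profile favours in advance.

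Levels in PANC1 were also set against those in BXPC3 in the same matrix, to show how far the lines differ in these genes. The 6 genes were chosen by levels in the same libraries, and ALDH3A1 passed the filter through BXPC3 alone, so the differences between the lines are values without a test. CYP1B1 was higher and AHR and ALDH3A1 were lower in PANC1 in all 3 matrices, with no overlap of libraries. The AHR difference was -1.19 ± 0.06 in 7.5% GelMA, -0.84 ± 0.06 in 5% GelMA and -1.57 ± 0.06 in collagen. That of CYP1B1 was 3.40 ± 0.06, 2.54 ± 0.06 and 1.89 ± 0.06 in the same order, which in 7.5% GelMA is 10.5-fold. The ALDH3A1 differences were -9.05 ± 0.25, -11.35 ± 0.25 and -10.06 ± 0.25 as deposited, and -7.10, -7.71 and -7.60 with 1 RPKM added. TIPARP was higher in PANC1 in 7.5% GelMA (0.96 ± 0.05) and lower in 5% GelMA (-0.28 ± 0.05) and collagen (-0.36 ± 0.05), with no overlap in any of them. CYP1A1 was lower in PANC1 in 5% GelMA (-2.27 ± 0.28) and in collagen (-2.17 ± 0.28). In 7.5% GelMA the CYP1A1 libraries of the 2 lines overlapped, with a difference of 0.23 ± 0.28 that ran from -0.02 to 0.47 as single libraries were left out. AHRR differed by -0.02 ± 0.07 in 7.5% GelMA, where the lines overlapped, by -0.23 ± 0.07 in 5% GelMA and by 0.14 ± 0.07 in collagen. The median of all genes was 0.10, 0.11 and 0.13 log2 higher in PANC1 in 7.5% GelMA, 5% GelMA and collagen.

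Beyond the 6 genes, 100 others in 7 lists were examined. They were genes of the pathway and relatives of the enzymes above, namely 22 other cytochrome P450 genes and 18 other aldehyde dehydrogenase genes. Of the 100, 88 were in the table and 86 were tested by limma with adjustment over all 15794 genes. These lists were chosen with earlier results of these data known. Their shares of calls, here and below, are therefore descriptions, and nothing is read from them beside the shares of all genes. For 7.5% minus 5% GelMA in PANC1, 19 rose and 9 fell, 32.6% of the 86 against 18.7% of all genes tested. That count was 14 without replicate 2 of 5% GelMA, 17 without replicate 2 of 7.5% GelMA and at most 20 without any 1 library, while the count over all genes fell to between 1449 and 1746, against 2956 with all libraries. For 7.5% GelMA minus collagen in PANC1, 28 rose and 23 fell (53.8% of all genes called), and for 5% GelMA minus collagen 25 rose and 20 fell (46.2%). In BXPC3, 14 rose and 14 fell in 7.5% GelMA against collagen (29.8% of all genes), or 14 in all without replicate 2 of 7.5% GelMA, when 2610 of all genes were called, against 4701 with all libraries. For 5% GelMA minus collagen in BXPC3, 17 rose and 11 fell (29.9%). None of the 86 was called by limma for 7.5% minus 5% GelMA in BXPC3, where 10 had an unadjusted p under 0.05 and 0.0823% of all genes were called.

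**Figure D4:**
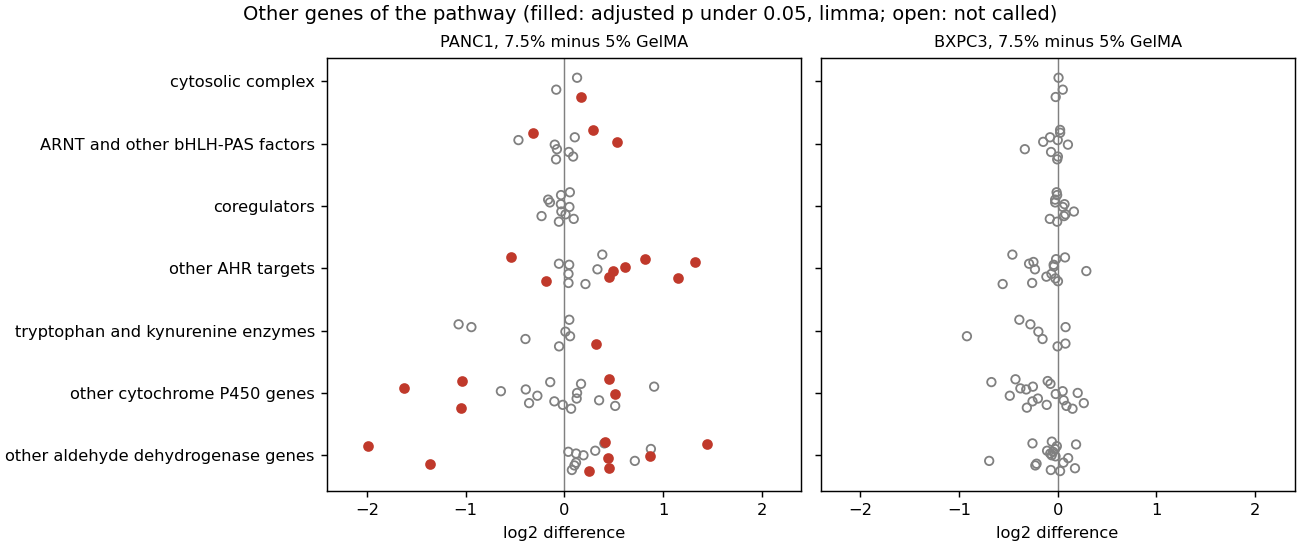
Log2 difference of 7.5% minus 5% GelMA for the 86 tested genes of the 7 pathway lists, PANC1 left and BXPC3 right. Each point is a gene, spread vertically only for legibility, filled where limma called it at an adjusted p under 0.05. In PANC1, 28 genes are filled, 8 of them among the 15 other targets of the receptor, and in BXPC3 none is.

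Other genes described as targets of the receptor did not share one direction in PANC1. Of 15 tested, 6 rose and 2 fell in 7.5% against 5% GelMA (53.3%, against 18.7% of all genes, median 0.33 log2, against 0.01 over all genes). Against collagen, 5 rose and 4 fell in 7.5% GelMA (60.0%, against 53.8% of all genes, median 0.04 log2). In 5% GelMA against collagen, 4 rose and 5 fell (60.0%, against 46.2% of all genes, median -0.27 log2). SLC7A5, a transporter of large neutral amino acids such as tryptophan, was at 8.40 and 8.57 log2 RPKM in 7.5% GelMA, against 7.72 and 7.61 in 5% GelMA, a rise of 0.82 ± 0.08 (adjusted p = 0.000155). It stood at 8.58 and 8.72 in collagen, where the difference of 7.5% GelMA was not called (-0.17 ± 0.08, adjusted p = 0.0993, or 0.0478 without replicate 2 of 7.5% GelMA). CYP2S1, another P450 gene, averaged 3.96 in 7.5% GelMA, 3.51 in 5% GelMA and 2.65 in collagen, and rose by 0.45 ± 0.06 in 7.5% against 5% GelMA and by 0.86 ± 0.06 in 5% GelMA against collagen (adjusted p = 0.000596 and 2.56e-06). NEDD9, a scaffold protein of focal adhesions, showed the highest difference of the list at 1.32 ± 0.30 (adjusted p = 0.0132), with 0.29 and 0.75 in 7.5% GelMA, -0.67 and -0.94 in 5% GelMA and a mean of -2.55 in collagen. Its call was lost without replicate 2 of 7.5% GelMA or replicate 2 of 5% GelMA (adjusted p = 0.0991 and 0.0882), and in a fit of PANC1 alone (0.0507).

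Among the remaining called targets, STC2, a secreted glycoprotein hormone, rose by 0.49 ± 0.15 in 7.5% against 5% GelMA (adjusted p = 0.0424) and fell by 1.37 ± 0.15 in 7.5% GelMA against collagen. The first of these calls was lost with no mean-variance trend (adjusted p = 0.0597), and when any 1 of the 4 libraries was left out (adjusted p = 0.117 to 0.221). SERPINB2 and PTGS2 rose by 1.15 and 0.61 (adjusted p = 0.0052 and 0.00392), but at -4.92 to -4.65 and -1.81 to -1.79 log2 RPKM in 7.5% GelMA. With 1 RPKM added their differences were 0.03 and 0.12, and both calls were lost (adjusted p = 0.877 and 0.396), as they were in PANC1 alone (0.0893 and 0.117). PTGS2 was at -0.42 and -0.38 in collagen, above both GelMA groups. Its difference from collagen was -1.40 ± 0.11 in 7.5% and -2.01 ± 0.11 in 5% GelMA (limma, adjusted p = 3.64e-06 and 6.96e-07). EREG, the growth factor epiregulin, fell by 0.54 ± 0.08 (adjusted p = 0.002), with 3.02 and 3.08 in 7.5% GelMA, 3.63 and 3.54 in 5% GelMA and 1.95 and 2.03 in collagen. HES1, a repressor downstream of Notch, fell by 0.19 (adjusted p = 0.0297), a call lost without any 1 of the 4 libraries (adjusted p = 0.101 to 0.143) and with no mean-variance trend (0.0807). HES1 was nevertheless called higher than collagen in both GelMA groups, by 0.33 in 7.5% and by 0.52 in 5% GelMA. NQO1, a quinone reductase shared with the NRF2 response, was at 7.04 and 7.01 in 7.5% GelMA and at 6.67 and 6.62 in 5% GelMA, without overlap, but was not called (0.38 ± 0.15, adjusted p = 0.0978, or 0.000905 in PANC1 alone). Against collagen (7.40 and 7.47) it fell by 0.40 ± 0.15 in 7.5% and by 0.79 ± 0.15 in 5% GelMA (adjusted p = 0.0388 and 0.00157). The first of these calls was lost without any 1 of the 4 libraries (adjusted p = 0.0845 to 0.143) and with no mean-variance trend (0.0786). NFE2L2, which encodes NRF2, also fell against collagen, by 0.49 ± 0.05 in 7.5% and by 0.54 ± 0.05 in 5% GelMA (adjusted p = 1.38e-05 in both). It was at 7.34 in both collagen libraries, equal values whose SD of 0 is no measure of precision.

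In BXPC3, 2 of these 15 targets rose and 4 fell in 7.5% GelMA against collagen (40.0%, against 29.8% of all genes), and 4 rose and 3 fell in 5% GelMA (46.7%, against 29.9%). EREG rose by 0.54 ± 0.08 in 7.5% GelMA (adjusted p = 0.00126), and ABCG2, a drug efflux transporter, rose by 0.70 ± 0.17 in 5% GelMA (adjusted p = 0.0122). The ABCG2 call was lost without replicate 2 of collagen or replicate 1 of 5% GelMA (adjusted p = 0.0831 and 0.0876) and in BXPC3 alone (0.0699). NQO1 was called in none of the 3 BXPC3 comparisons (for 5% GelMA minus collagen, adjusted p = 0.0957, or 0.0258 without replicate 1 of collagen and 0.0142 without replicate 2 of 5% GelMA), with 6.73 and 6.87 in 7.5% GelMA, 7.49 and 7.02 in 5% GelMA and 7.10 and 6.71 in collagen. NFE2L2 differences in BXPC3 ran from -0.067 to -0.0046 and were not called.

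The cytosolic complex changed by small amounts. HSP90AA1 rose in PANC1 in 7.5% against 5% GelMA (0.17 ± 0.04, adjusted p = 0.017), a call lost without replicate 1 or 2 of 5% GelMA or replicate 1 of 7.5% GelMA (adjusted p = 0.0837, 0.102 and 0.116). Against collagen, PTGES3 fell in PANC1, by 0.42 ± 0.03 in 7.5% GelMA and by 0.34 ± 0.03 in 5% GelMA (adjusted p = 3.59e-06 and 2.48e-05). HSP90AB1 rose in BXPC3, by 0.33 ± 0.07 in 7.5% GelMA and by 0.32 ± 0.07 in 5% GelMA (adjusted p = 0.00467 and 0.00545). PTGES3 was at 8.53 in both PANC1 collagen libraries, equal values that give no measure of precision there.

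The dimer partner ARNT differed by at most 0.20 log2 between matrices within a line. It was at 5.04 and 5.01 log2 RPKM in PANC1 in 7.5% GelMA, at 5.09 and 5.12 in 5% GelMA and at 5.19 and 5.26 in collagen. Its only call within a line was a fall of 0.20 ± 0.05 in PANC1 in 7.5% GelMA against collagen (adjusted p = 0.0101), lost without replicate 2 of collagen or of 7.5% GelMA (0.0676 and 0.0558). In BXPC3 it was at 4.32 and 4.40 in 7.5% GelMA, at 4.36 and 4.37 in 5% GelMA and at 4.44 and 4.55 in collagen, where both GelMA differences were called without replicate 1 of collagen (adjusted p = 0.0433 in 7.5% and 0.0463 in 5% GelMA). ARNT2, its relative of neural tissue, was at 4.94 and 4.92 in PANC1 in 7.5% GelMA and at 5.41 and 5.38 in 5% GelMA, a difference of -0.47 ± 0.15 that was not called (adjusted p = 0.0563, or 0.014 with 1 RPKM added and 0.000721 in PANC1 alone).

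Of 10 bHLH-PAS genes tested, several of which share ARNT as a partner, 4 rose and 4 fell in PANC1 in 7.5% GelMA against collagen (80.0%, against 53.8% of all genes), and 2 rose and 1 fell against 5% GelMA (30.0%, against 18.7%). HIF1A, the oxygen-regulated factor, rose in PANC1 by 1.05 ± 0.09 in 7.5% GelMA and by 0.95 ± 0.09 in 5% GelMA against collagen (adjusted p = 9.07e-06 and 2.94e-05). In BXPC3 it rose by 0.55 ± 0.09 in 7.5% and by 0.62 ± 0.09 in 5% GelMA (adjusted p = 0.00202 and 0.00111). SIM2, a developmental repressor, rose in PANC1 by 1.54 ± 0.08 in 7.5% and by 1.01 ± 0.08 in 5% GelMA against collagen, and by 0.53 ± 0.08 between the 2 GelMA groups (adjusted p = 0.00172). The clock gene BMAL2 fell by 0.32 ± 0.05 in 7.5% against 5% GelMA in PANC1 (adjusted p = 0.00186).

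Of 12 coregulators, 1 was called in PANC1 in 7.5% GelMA against collagen (8.3%, against 53.8% of all genes) and 2 in 5% GelMA against collagen (16.7%, against 46.2%). KLF6, a zinc finger factor that can pair with the receptor, rose against collagen in each GelMA group of both lines, by 0.31 ± 0.04 and 0.30 ± 0.04 in PANC1 and by 0.84 ± 0.04 and 0.76 ± 0.04 in BXPC3 at 7.5% and 5%. Enzymes that make or consume tryptophan metabolites gave 1 call of 8 between the GelMA groups of PANC1 (12.5%, against 18.7% of all genes), KYAT3, a kynurenine aminotransferase (a rise of 0.33 ± 0.06, adjusted p = 0.00664, or 0.0593 without replicate 2 of 5% GelMA and 0.0562 without replicate 1 of 7.5% GelMA). KMO, which hydroxylates kynurenine, rose in PANC1 in both GelMA groups against collagen (adjusted p = 0.0167 in 7.5% and 0.0235 in 5% GelMA), by 1.35 ± 0.40 in 7.5% GelMA, at means of 0.68, 0.63 and -0.67 log2 RPKM in 7.5% GelMA, 5% GelMA and collagen. Both KMO calls were lost without replicate 2 of collagen (adjusted p = 0.102 in 7.5% and 0.131 in 5% GelMA), that in 7.5% GelMA also without its replicate 1 (0.123), and that in 5% GelMA without either of its replicates (0.0672 and 0.105). IL4I1, an amino acid oxidase that makes receptor ligands from tryptophan, rose in BXPC3 by 0.85 ± 0.21 in 7.5% and by 1.00 ± 0.21 in 5% GelMA (adjusted p = 0.013 and 0.00595), the first call being lost without replicate 1 or 2 of 7.5% GelMA (0.0531 and 0.0697).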

How the data were processed

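The deposited values were log2 RPKM of 16299 Ensembl genes in 12 libraries, made by the authors with HISAT2 2.1.0, HTSeq and the build GRCh38 (hg38), per the submitters' processing notes. Poly-A libraries followed RNeasy extraction, per the labels' protocols. Annotation, gene lengths, strand setting and the offset before the log are unknown, and 0 value columns stayed unmapped. Sorted values agreed between libraries within 0.05 log2 at all but the lowest 2541 ranks, and were therefore taken as quantile normalized, which removes any change common to most genes. Read totals are lost by this, so depth and counting error are unknown.

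Symbols came from a gene name table (16250 IDs) and GENCODE 29 (49 IDs), positions from GENCODE 29. Genes reaching 1 RPKM in 2 libraries or more were tested (15794, with 505 left out) by limma 3.58.1 in R 4.3.3 with a mean-variance trend, fitting 6 group means to all 12 libraries (6 residual and 3.89 prior degrees of freedom). Benjamini-Hochberg adjustment ran over all genes tested in each comparison, with calls at an adjusted p under 0.05. Differences are the group named first minus the second, with the SE of this fit. Differences of the 6 genes carry no p-value, between matrices or between lines. The script was tested on simulated data.

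The 6 genes and the pathway lists were chosen with earlier results of these data known. Named genes were all 6, the highest and lowest called gene of each list and within-line comparison, 6 genes followed throughout (ARNT, NQO1, ARNT2, HIF1A, EPAS1 and NFE2L2) and the 3 closest profiles per gene. Some genes that this rule selects are counted in the lists but not reported here by name. SLC7A5, CYP2S1, STC2, SERPINB2, PTGS2 and HES1 in PANC1, and the genes overlapping the 6 loci, were named after their values were seen. Alternatives were log2(RPKM + 1), no filter, no trend, 1 line alone, a replicate block and leaving out single libraries.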

Additional observations from a re-analysis of the deposited data

Results flagged for a closer look

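Several effects differed between the lines, given here as the PANC1 effect minus the BXPC3 effect on the log2 scale. For the 6 genes followed throughout the difference was tested as an interaction in limma, a test added after the data were seen. Of 18 such tests, 7 had an adjusted p under 0.05 and are given below, and 11 did not, among them all 3 of ARNT (-0.08 to 0.02). The share of all genes called in these interactions was not counted, so nothing is read from the number of calls. The interactions were fitted in the main setting only, so their dependence on single libraries is unknown. For 5% GelMA minus collagen, NQO1 differed by -1.14 ± 0.21 (adjusted p = 0.00247), with -0.79 in PANC1 and 0.35 in BXPC3. NFE2L2 differed by -0.53 ± 0.07 (adjusted p = 0.00029) and ARNT2 by 0.95 ± 0.21 (0.0076) in the same comparison. For 7.5% GelMA minus collagen, HIF1A differed by 0.51 ± 0.13 (adjusted p = 0.0129), EPAS1 by 0.21 ± 0.07 (0.0331) and NFE2L2 by -0.43 ± 0.07 (0.000756). NFE2L2 held equal values in both PANC1 collagen libraries, which give no measure of precision there. For 7.5% minus 5% GelMA, NQO1 differed by 0.84 ± 0.21 (adjusted p = 0.0326).

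Among the receptor gene and its targets, some moved in opposite directions in the 2 lines with no overlap of libraries in either, and these differences were not tested, because the genes were chosen on these contrasts. They were CYP1B1 for 5% GelMA minus collagen (0.65), TIPARP (1.32) and ALDH3A1 (1.01) for 7.5% GelMA minus collagen, and AHRR (0.21) and ALDH3A1 (2.3) for 7.5% minus 5% GelMA. Both ALDH3A1 values rest on PANC1 levels under 1 RPKM.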

How the results depend on the processing

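Leaving out single libraries moved some counts. Pathway genes called for 7.5% minus 5% GelMA in PANC1 ran from 14 to 20 (28 with all libraries), and those for 7.5% GelMA minus collagen in BXPC3 from 14 to 24 (28). The number of the 6 genes without overlap in BXPC3 ran from 2 to 6 for 5% GelMA minus collagen (2) and from 4 to 5 for 7.5% minus 5% GelMA (3), where fewer libraries make overlap rarer by construction. All genes called for 7.5% minus 5% GelMA ran from 1449 to 1746 in PANC1 (2956) and from 6 to 33 in BXPC3 (13), and the BXPC3 count was 0 with log2(RPKM + 1), with the replicate block and in the line alone. Small uncalled differences changed sign when single libraries were left out. Among the 6 genes followed throughout, these were, for 5% GelMA minus collagen, NFE2L2 in BXPC3 (-0.0513 to 0.042). For 7.5% GelMA minus collagen they were NQO1 in BXPC3 (-0.3028 to 0.0908) and ARNT2 in PANC1 (-0.0193 to 0.0141). For 7.5% minus 5% GelMA in BXPC3 they were ARNT (-0.0465 to 0.0382), ARNT2 (-0.1849 to 0.1873), EPAS1 (-0.0498 to 0.0549) and HIF1A (-0.1588 to 0.0053). Between the lines it was NFE2L2 in 5% GelMA (-0.0758 to 0.0175). Untested differences of the receptor gene, its repressor and targets also changed sign. In BXPC3 these were AHR (-0.0092 to 0.1478), TIPARP (-0.1053 to 0.032) and ALDH3A1 (-0.2308 to 0.0988) for 5% GelMA minus collagen. CYP1B1 (-0.0885 to 0.0259) did so for 7.5% GelMA minus collagen. For 7.5% minus 5% GelMA they were AHR (-0.0234 to 0.1335), CYP1A1 (-0.3098 to 0.1813) and TIPARP (-0.1298 to 0.0074). Between the lines in 7.5% GelMA they were AHRR (-0.0658 to 0.018) and CYP1A1 (-0.0172 to 0.4739). The cause was not tested. In BXPC3 alone, 71.43% of the pathway calls for 5% GelMA minus collagen were higher, against 17 of 28 with both lines fitted together. For 7.5% GelMA minus collagen the share was 64.29%, against 14 of 28. Over all genes called, the shares in BXPC3 alone were 51.07% for 5% and 51.68% for 7.5% GelMA minus collagen. With both lines fitted together these all-gene shares were 54.03% and 53.95%.

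The replicate numbers were not shown to pair the libraries, since deviations of same-numbered libraries correlated at -0.0485 to 0.0771 with only 2 numbers. With the replicate block, 27 pathway genes were called for 7.5% minus 5% GelMA in PANC1 (17 higher, 10 lower), beside 1212 higher and 1353 lower over all genes. For 7.5% GelMA minus collagen in PANC1, 48 were called, beside 4141 higher and 4065 lower over all genes. For 7.5% minus 5% GelMA in BXPC3, 0 pathway genes and 0 of all genes were called. With the block, every count of pathway genes stayed within 1.5 times its main value, unlike some counts with single libraries left out. The block ended the calls of STC2 for 7.5% minus 5% GelMA in PANC1 (adjusted p = 0.0563), of ARNT2 for 5% GelMA minus collagen in PANC1 (0.0504) and for both GelMA groups minus collagen in BXPC3 (0.0622 in 5% and 0.0631 in 7.5%), and of PTGES3 (0.0538) and QPRT (0.0804) for 7.5% GelMA minus collagen in BXPC3. Each of these calls was also lost when some single libraries were left out. All but that of ARNT2 in PANC1 were lost with no mean-variance trend as well. Depth is unknown, so nothing can be said about detection limits of the genes under 1 RPKM.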

Other observations

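The relatives of CYP1A1, CYP1B1 and ALDH3A1 followed no single direction. Of 19 other cytochrome P450 genes tested, 7 rose and 6 fell in PANC1 in 7.5% GelMA against collagen (68.4%, against 53.8% of all genes), and 2 rose and 3 fell against 5% GelMA (26.3%, against 18.7% of all genes; limma, adjusted p under 0.05). CYP27B1, which activates vitamin D, rose most against 5% GelMA (0.51 ± 0.11, adjusted p = 0.0102, or 0.0859 without replicate 2 of 5% GelMA and 0.0762 without replicate 2 of 7.5% GelMA). CYP4F3, a leukotriene hydroxylase gene, fell most against collagen (-3.87 ± 0.37, adjusted p = 1.59e-05), at means of -3.77 log2 RPKM in 7.5% GelMA and 0.10 in collagen. In BXPC3, CYP2J2, an arachidonic acid epoxygenase, fell by 1.35 ± 0.30 in 7.5% GelMA and by 1.10 ± 0.30 in 5% GelMA against collagen (adjusted p = 0.0088 and 0.0224). Both CYP2J2 calls were lost without replicate 2 of collagen (0.0714 in 7.5% and 0.158 in 5% GelMA), that in 7.5% GelMA also without its replicate 2 (0.0537), and that in 5% GelMA without either of its replicates (0.0755 and 0.0909). CYP51A1, of cholesterol synthesis, rose by 0.97 ± 0.18 in 7.5% and by 0.76 ± 0.18 in 5% GelMA (adjusted p = 0.0037 and 0.0118), and the 5% GelMA call was lost without replicate 2 of collagen or of 5% GelMA (0.0602 and 0.0533).

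Of 18 other aldehyde dehydrogenase genes, 9 rose and 5 fell in PANC1 in 7.5% GelMA against collagen (77.8%, against 53.8% of all genes), and 6 rose and 2 fell against 5% GelMA (44.4%, against 18.7%). ALDH1A3, which makes retinoic acid, had the largest rise against collagen, by 2.01 ± 0.06 in 7.5% GelMA and by 1.15 ± 0.06 in 5% GelMA (adjusted p = 7.5e-09 and 4.54e-07), at means of 8.28, 7.41 and 6.27 log2 RPKM in 7.5% GelMA, 5% GelMA and collagen. ALDH1A1 fell most, by 3.49 ± 0.33 in 7.5% GelMA against collagen (adjusted p = 1.36e-05), and averaged -4.69 in 7.5% GelMA and -1.20 in collagen, both under 1 RPKM. In BXPC3, ALDH1B1, a mitochondrial enzyme, rose by 0.57 ± 0.07 in 7.5% and by 0.39 ± 0.07 in 5% GelMA (adjusted p = 0.000542 and 0.00381).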
